A study of Rattus norvegicus with 12 samples.

Results

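The 10 genes described here are markers of endothelial cells, the cells that line blood vessels: the receptor tyrosine kinase genes Kdr, Flt1, Tek and Tie1, the surface and junction genes Cdh5, Pecam1, Esam and Emcn, and the secreted proteins Vwf and Egfl7. They were taken by gene symbol from a table of 12271 genes measured by RNA sequencing in 12 libraries, and all 10 were found. The cultures were neonatal cardiac fibroblasts from the heart ventricles of Sprague Dawley rats at postnatal day 2, which were enriched on a density gradient and not sorted, so other heart cells could be present. All cultures were transfected with siRNAs at 25 nM. The sample labels put collection 48 h after transfection, while the study's methods count 48 h from a change of medium made after it. The 4 groups of 3 libraries received MISSION Universal Negative Control siRNAs (negative siRNA), a pair of siRNAs against Yap1 (Yap siRNA), a pair against Wwtr1 (Wwtr1 siRNA), or both targets together (Yap+Wwtr1 siRNA). The siRNA entry of the double group names only the Wwtr1 siRNAs while its title names both targets, and both transcripts were low in it. The design text of the series calls the cells cardiac myocytes, while its title and the sample labels say fibroblasts. All 10 fibroblast markers listed for the check were measured, and 9 of the 10 endothelial markers had reads in every library, Emcn being the exception. The mean levels of the markers over the 12 libraries differed widely. Flt1 was highest at 3154 normalized counts, above 80.9% of the genes tested, followed by Tek at 574 (39.0%). Cdh5, Vwf, Kdr and Pecam1 were at 138, 107, 94.6 and 70.1, above 17.8% to 12.2% of them. Which cells carried each transcript was not tested.

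Yap and Wwtr1, also called Taz, are transcriptional co-activators of the Hippo pathway that bind DNA through partner factors of the TEAD family. Endothelial cells carry receptors for vascular endothelial growth factors (Kdr and Flt1) and for angiopoietins (Tek, with the related Tie1), hold to each other through junction proteins such as VE-cadherin (Cdh5), PECAM-1 and ESAM, and store von Willebrand factor. In RNA from whole cultures, fewer cells of a type and less RNA per cell cannot be told apart.

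Yap1 was at 2984 to 3776 normalized counts with negative siRNA, 532 to 625 with Yap siRNA, and 713, 739 and 1474 in replicates 1, 2 and 3 of Yap+Wwtr1 siRNA. Wwtr1 was at 2280 to 2565 with negative siRNA, 524 to 637 with Wwtr1 siRNA, and 818, 731 and 1056 with Yap+Wwtr1 siRNA. Both targets were least reduced in Yap+Wwtr1 replicate 3. A normalized count is a read count divided by one factor per library, and the libraries held 33886920 to 41059839 counted reads. Yap+Wwtr1 replicate 3 stood apart from the other 2 of its group, with a chi-square per gene of 122 and 126 against replicates 1 and 2, where the other replicate pairs gave at most 50.7. Among all genes tested, 14.8% had their highest value of the 12 libraries in this library, and 5 of the 10 endothelial markers did, Emcn among them. Calls that were lost or gained without it are given with their values.

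With Yap+Wwtr1 siRNA, Kdr, Esam, Cdh5, Tek and Vwf rose against negative siRNA, and no endothelial marker gene fell by the test. The changes ran from 1.59-fold for Vwf to 3.47-fold for Kdr. Calls are from limma on log2(normalized count + 1), two-sided, with Benjamini-Hochberg adjustment over all 11871 genes with a mean of at least 10 and a threshold of 0.05; fold changes on this scale understate the change of genes with few reads. By that rule 5 of 10 markers were called, all higher, where 32.8% of all genes tested were called in either direction and 17.1% were called higher. The median log2 fold change was 0.76 over the 10 markers and 0.00 over all genes tested. Emcn counts among the 10, and it passed the filter only through its double libraries. In 5 of the 10, the libraries of the 2 groups did not overlap: Kdr, Tek, Vwf and Esam were higher and Egfl7 was lower in every double library, and 44.6% of all genes tested were separated in this way. Without Yap+Wwtr1 replicate 3, Kdr, Esam and Tek kept the call, 3 of 10 where 34.2% of all genes were called.

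**Figure D1:**
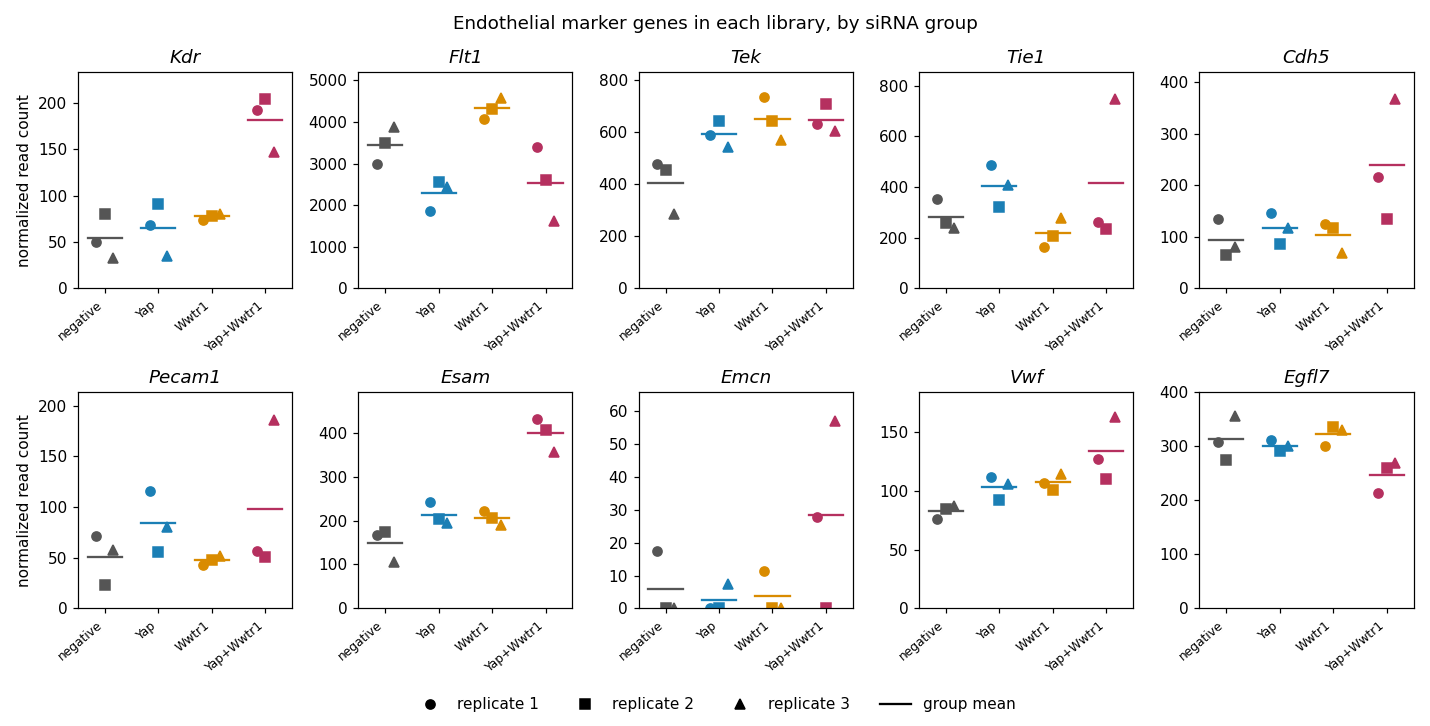
Normalized read count (y axis, linear from 0, its own scale in each panel) of each endothelial marker gene in the 4 siRNA groups (x axis). Each symbol is a library, its shape gives the replicate number and the line is the group mean; Kdr and Esam were higher in all 3 Yap+Wwtr1 libraries than in the 9 others, while Tie1, Cdh5, Pecam1, Emcn and Vwf were highest in Yap+Wwtr1 replicate 3.

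Kdr encodes vascular endothelial growth factor receptor 2, the main signalling receptor for VEGF-A in endothelial cells. It was at 50.3, 80.0 and 33.1 normalized counts in the negative libraries, 68.6, 91.0 and 34.6 in the Yap libraries, 74.1, 78.6 and 80.3 in the Wwtr1 libraries and 193, 204 and 147 in the double libraries. Every double library lay above every other library, and Wwtr1 siRNA gave the closest set of values. Against negative siRNA the double knockdown was higher by 1.79 on the log2 scale (SE 0.37, adjusted p = 0.00325 by limma), and it kept the call with each of the 12 libraries left out in turn. Neither single siRNA was called, with differences of 0.23 (95% interval -0.58 to 1.04) for Yap siRNA and 0.59 (-0.21 to 1.40) for Wwtr1 siRNA. Without negative replicate 3 these differences were -0.08 and 0.29, and without negative replicate 2 that of Wwtr1 siRNA was 0.91.

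The double knockdown was also above each single one in Kdr, by 1.56 against Yap siRNA (SE 0.37, adjusted p = 0.0170 by limma) and by 1.20 against Wwtr1 siRNA (SE 0.37, adjusted p = 0.0399). The first call was lost without Yap replicate 3, Yap+Wwtr1 replicate 1 or Yap+Wwtr1 replicate 2 (1.17, 1.51 and 1.47, adjusted p = 0.0657, 0.0519 and 0.0579). The second was lost without negative replicate 1, any of the Wwtr1 libraries, or Yap+Wwtr1 replicate 1 or 2, with values of 1.11 to 1.23 and adjusted p from 0.0530 to 0.108, and also in a fit without the mean-variance trend (adjusted p = 0.0504 by limma). The test of whether the double effect differed from the sum of both single effects gave 0.97 (95% interval -0.17 to 2.11, adjusted p = 0.449 by limma).

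Flt1 encodes receptor 1 for vascular endothelial growth factors, which binds VEGF-A tightly, signals weakly and limits what reaches Kdr. Its libraries were at 2999, 3487 and 3883 in the negative libraries, 1854, 2565 and 2447 in the Yap libraries, 4076, 4318 and 4585 in the Wwtr1 libraries and 3405, 2616 and 1609 in the double libraries. All Yap libraries lay below and all Wwtr1 libraries above the negative ones, and the double libraries spread over a wider range than any other group. Yap siRNA was lower than Wwtr1 siRNA by 0.93 on the log2 scale (SE 0.22, adjusted p = 0.0236 by limma), the only marker of 10 called in that comparison, where 8.79% of all genes were. This call was lost without Yap replicate 1 or without any one of the Wwtr1 libraries, with differences of -0.97 to -0.79 and adjusted p from 0.0521 to 0.0941, and in a fit without the mean-variance trend (adjusted p = 0.0501 by limma). Against negative siRNA, Flt1 differed by -0.60 with Yap siRNA (95% interval -1.08 to -0.12, adjusted p = 0.152), by 0.33 with Wwtr1 siRNA (-0.15 to 0.81, adjusted p = 0.401) and by -0.50 with both (-0.98 to -0.02, adjusted p = 0.102), none of them called by limma. Without Yap+Wwtr1 replicate 3 in the fit, the first was called (-0.60, adjusted p = 0.0266). With the replicate number as a block and all double libraries left out, the first 2 were called (adjusted p = 0.000484 and 0.0108 by limma). The 3 comparisons share the same negative libraries.

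The double knockdown was lower than Wwtr1 siRNA in Flt1 by 0.83 (SE 0.22, adjusted p = 0.0208 by limma). That call was lost without Wwtr1 replicate 2 (-0.83, adjusted p = 0.0599) or Wwtr1 replicate 3 (-0.79, adjusted p = 0.0729), and with the 2 compared groups fitted alone (adjusted p = 0.0612 by limma), and the difference was -0.53 without Yap+Wwtr1 replicate 3. Of all 12 libraries, Yap+Wwtr1 replicate 3 had the lowest Flt1. Without it the double knockdown differed from negative siRNA by -0.20 (adjusted p = 0.334), and without Yap+Wwtr1 replicate 1 it was lower by 0.74 and called (adjusted p = 0.0169), so single libraries of this group decided the Flt1 value.

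Promoter sequences are shown for Kdr, which had the largest rise among the called markers, and for Flt1, the other VEGF-A receptor, whose values differed between the single siRNAs. The third is Egfl7, the marker lower in every double library and the only one of the 3 with a match. Each is 250 bases before the annotated start, 5′ to 3′ on the gene's strand, from RefSeq on the GRCr8 build, which is not the build the reads were aligned to; capitals mark motif matches.
Kdr (chr14:32571813-32572062, plus strand): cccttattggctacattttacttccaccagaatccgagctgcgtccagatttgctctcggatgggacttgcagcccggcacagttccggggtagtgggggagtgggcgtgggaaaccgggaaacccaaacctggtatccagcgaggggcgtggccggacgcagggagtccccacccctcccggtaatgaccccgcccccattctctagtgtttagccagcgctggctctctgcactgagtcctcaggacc
Flt1 (chr12:12333180-12333429, plus strand): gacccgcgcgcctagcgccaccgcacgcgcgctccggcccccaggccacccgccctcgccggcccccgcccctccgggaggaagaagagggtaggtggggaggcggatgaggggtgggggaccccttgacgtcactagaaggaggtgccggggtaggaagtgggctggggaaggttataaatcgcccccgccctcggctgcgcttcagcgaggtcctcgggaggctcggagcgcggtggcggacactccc
Egfl7 (chr3:29805381-29805630, plus strand): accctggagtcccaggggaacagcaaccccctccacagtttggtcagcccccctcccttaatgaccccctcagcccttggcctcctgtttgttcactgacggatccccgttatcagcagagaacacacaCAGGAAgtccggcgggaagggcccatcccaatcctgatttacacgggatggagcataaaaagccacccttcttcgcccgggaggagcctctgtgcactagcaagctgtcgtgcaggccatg
Letters of 3 motifs were searched on both strands: CATTCC, bound by TEAD factors, CAGGAA, bound by ETS factors, and GAAANNGAA, an interferon response motif. Of the 10 markers, 5 had a promoter entry (Kdr, Flt1, Tie1, Emcn and Egfl7, the last with a second start that held no match). CATTCC was found in Emcn alone, CAGGAA in Emcn and in the first Egfl7 promoter 121 bases before its start, and GAAANNGAA in none, while 12.1%, 24.7% and 8.12% of the 33469 rat promoters in the table held them. A match is a run of letters and not a bound site, and no match says only that these letters are not in this window.

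Tek encodes the angiopoietin receptor Tie2. It was at 479, 454 and 285 normalized counts in the negative libraries, 591, 645 and 545 in the Yap libraries, 735, 645 and 571 in the Wwtr1 libraries and 632, 707 and 605 in the double libraries. Every library with a targeting siRNA was above every negative library, and the 3 targeting groups overlapped each other. Tek was higher by 0.71 with Wwtr1 siRNA (SE 0.18, adjusted p = 0.0300 by limma) and by 0.71 with Yap+Wwtr1 siRNA (SE 0.18, adjusted p = 0.00999), and by 0.58 with Yap siRNA without being called (95% interval 0.19 to 0.97, adjusted p = 0.0919). With the replicate number as a block, the Yap siRNA difference was called (adjusted p = 0.0306 by limma over all 12 libraries and 0.0119 without the double libraries). The double call was kept with each library left out, with a difference of 0.47 without negative replicate 3. The Yap siRNA difference was 0.34 without that replicate. The Wwtr1 call was lost without negative replicate 3 (0.47, adjusted p = 0.0708), Wwtr1 replicate 1 (0.62, adjusted p = 0.118) or Wwtr1 replicate 2 (0.71, adjusted p = 0.0891), with the 2 compared groups fitted alone (adjusted p = 0.0655 by limma) and without the trend (adjusted p = 0.0505). Between the double knockdown and Wwtr1 siRNA the Tek difference was 0.00 (95% interval -0.39 to 0.39). Tek was the only marker with an unadjusted p under 0.05 for the departure of the double effect from the sum of the single effects, -0.58 (95% interval -1.13 to -0.03), and its adjusted p was 0.321 by limma.

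Tie1 encodes an orphan receptor that pairs with Tie2. Its libraries were at 351, 257 and 240 in the negative libraries, 489, 320 and 408 in the Yap libraries, 164, 207 and 279 in the Wwtr1 libraries and 264, 236 and 748 in the double libraries. All Yap libraries were above all Wwtr1 libraries, and replicate 3 of the double group was well above its own group. No comparison with negative siRNA was called by limma: the differences were 0.52 (95% interval -0.30 to 1.34) for Yap siRNA, -0.39 (-1.21 to 0.42) for Wwtr1 siRNA and 0.37 (-0.45 to 1.18) for both, and the last became -0.16 without Yap+Wwtr1 replicate 3. Yap siRNA against Wwtr1 siRNA gave 0.91 (95% interval 0.10 to 1.73, adjusted p = 0.156), which was called without Yap+Wwtr1 replicate 3 (adjusted p = 0.0222), with the 2 compared groups fitted alone (adjusted p = 0.0481) and with the replicate block and no double libraries (adjusted p = 0.0142 by limma).

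Cdh5 encodes VE-cadherin, the adhesion protein of endothelial junctions. Its libraries were at 135, 65.0 and 80.6 in the negative libraries, 147, 86.7 and 116 in the Yap libraries, 124, 116 and 69.1 in the Wwtr1 libraries and 217, 135 and 367 in the double libraries. The lowest double library was just below the highest negative one, and the double group lay wholly above the Wwtr1 group. Against negative siRNA the double knockdown was higher by 1.30 (SE 0.39, adjusted p = 0.0238 by limma). The call was lost without negative replicate 2 (1.07, adjusted p = 0.0865), negative replicate 3 (1.22, adjusted p = 0.0745), Yap+Wwtr1 replicate 1 (1.31, adjusted p = 0.0540) or Yap+Wwtr1 replicate 3 (0.93, adjusted p = 0.0758), and with the 2 compared groups fitted alone (adjusted p = 0.0561 by limma). Against Wwtr1 siRNA it gave 1.13 (95% interval 0.29 to 1.98, adjusted p = 0.0595), and against Yap siRNA 0.95 (0.10 to 1.79, adjusted p = 0.129). The difference from Wwtr1 siRNA was called without Yap+Wwtr1 replicate 2 (1.49, adjusted p = 0.0261), with the replicate number as a block (adjusted p = 0.0418 by limma), by edgeR (1.20, adjusted p = 0.0488) and by DESeq2 (1.21, adjusted p = 0.0161). The single siRNAs differed from negative siRNA by 0.35 (-0.50 to 1.20) and 0.16 (-0.68 to 1.01), neither called.

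Esam encodes an immunoglobulin-like adhesion protein of endothelial tight junctions that platelets also carry. It was at 167, 173 and 105 normalized counts in the negative libraries, 242, 203 and 194 in the Yap libraries, 221, 206 and 189 in the Wwtr1 libraries and 432, 406 and 357 in the double libraries. The groups were stacked without overlap, with negative lowest, both single siRNAs between and overlapping each other, and the double knockdown highest. The rise in the double knockdown was 1.45 (SE 0.19, adjusted p = 0.000189 by limma), and it was 0.90 above Yap siRNA (SE 0.19, adjusted p = 0.00982) and 0.95 above Wwtr1 siRNA (SE 0.19, adjusted p = 0.00538). All 3 calls were kept with each library left out. The single siRNAs gave 0.54 (95% interval 0.13 to 0.96, adjusted p = 0.134) and 0.50 (0.08 to 0.91, adjusted p = 0.137), the first called with the replicate block and no double libraries (adjusted p = 0.0499 by limma), and the departure of the double effect from their sum was 0.41 (-0.18 to 0.99, adjusted p = 0.558). Without negative replicate 3, the lowest Esam library, the single siRNAs gave 0.32 and 0.27.

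Pecam1 encodes CD31, an adhesion protein of endothelial cells, platelets and leukocytes. Its libraries were at 71.8, 23.0 and 57.9 in the negative libraries, 116, 55.7 and 80.7 in the Yap libraries, 42.8, 48.0 and 51.8 in the Wwtr1 libraries and 56.7, 51.0 and 186 in the double libraries. The double replicate 3 was the highest of all 12 and the other double libraries lay among the negative ones. No Pecam1 comparison was called by limma, with 0.80 (95% interval -0.34 to 1.93) for Yap siRNA, 0.05 (-1.09 to 1.18) for Wwtr1 siRNA and 0.82 (-0.32 to 1.95) for both against negative siRNA, and 0.23 for both without double replicate 3. Without negative replicate 2 the Yap siRNA difference was 0.31.

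Emcn encodes endomucin, a sialoglycoprotein of venous and capillary endothelium. It was listed at 0 in 7 of 12 libraries, at 17.4 in negative replicate 1, 7.33 in Yap replicate 3, 11.5 in Wwtr1 replicate 1, and 27.8 and 57.0 in Yap+Wwtr1 replicates 1 and 3. Its mean of 10.1 was just above the minimum of 10 for the test, and no fold change is given for it.

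Vwf encodes von Willebrand factor, the clotting protein stored in endothelial Weibel-Palade bodies and platelets. It was at 75.9, 85.0 and 86.8 in the negative libraries, 112, 92.1 and 106 in the Yap libraries, 106, 101 and 115 in the Wwtr1 libraries and 127, 110 and 163 in the double libraries. Every library with a targeting siRNA was above every negative library. The double knockdown was higher by 0.67 (SE 0.19, adjusted p = 0.0189 by limma), a call lost without negative replicate 1 (0.61, adjusted p = 0.0590) or Yap+Wwtr1 replicate 3 (0.52, adjusted p = 0.0646), and with the 2 compared groups fitted alone (adjusted p = 0.0696 by limma). Yap siRNA gave 0.32 (95% interval -0.10 to 0.73) and Wwtr1 siRNA 0.38 (-0.04 to 0.79), neither called.

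Egfl7 encodes a matrix-bound protein that endothelial cells secrete. It was at 308, 274 and 357 in the negative libraries, 311, 291 and 300 in the Yap libraries, 299, 335 and 330 in the Wwtr1 libraries and 214, 259 and 269 in the double libraries. The double libraries were below all 9 others, unlike those of the 5 markers that rose. The difference from negative siRNA was -0.34 (95% interval -0.63 to -0.04, adjusted p = 0.0775 by limma) and was not called. The single siRNAs differed from negative siRNA by -0.05 (-0.34 to 0.25) and 0.05 (-0.25 to 0.34), the narrowest intervals among the markers.

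**Figure D2:**
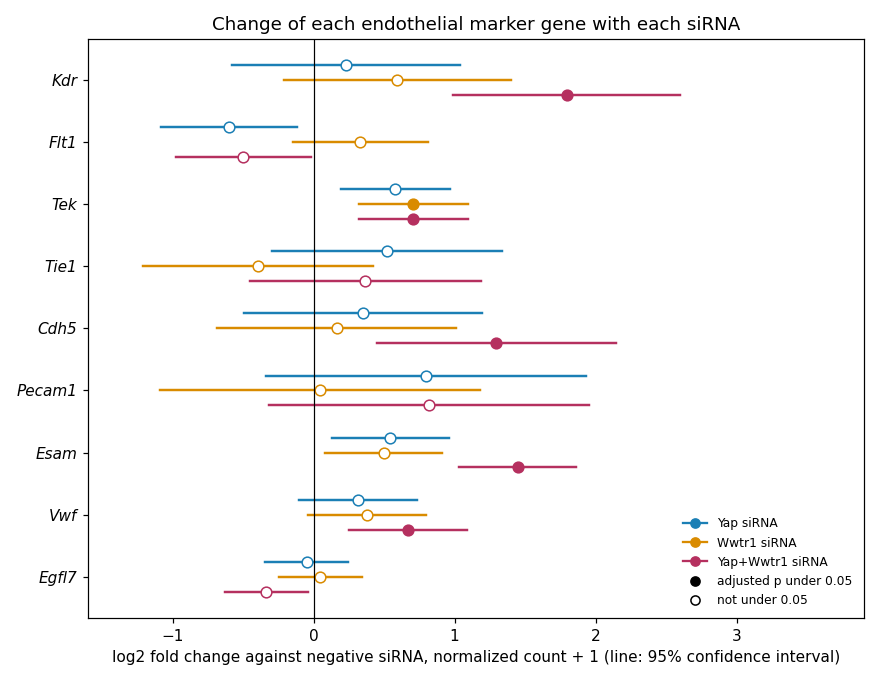
Log2 fold change against negative siRNA (x axis; points) with its 95% confidence interval (lines) for 9 endothelial marker genes (y axis), with Yap siRNA in blue, Wwtr1 siRNA in orange and Yap+Wwtr1 siRNA in red; Emcn is left out because 7 of its 12 values were 0. Filled points passed the threshold of 0.05 in the limma fit: Kdr, Tek, Cdh5, Esam and Vwf with Yap+Wwtr1 siRNA, and Tek with Wwtr1 siRNA.

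In the single knockdowns few markers were called. With Yap siRNA 0 of 10 were called by limma, where 4.8% of all genes tested were, and 3 had an unadjusted p under 0.05 (Flt1, Tek and Esam). On the recovered reads edgeR called 0 and DESeq2 called 1 (Tek), and DESeq2 also called more of all genes than limma did, as given in the last section. With Wwtr1 siRNA 1 of 10 was called (Tek), where 8.96% of all genes were. Between the double knockdown and Yap siRNA 2 of 10 were called (Kdr and Esam, both higher; 13.8% of all genes), and between the double knockdown and Wwtr1 siRNA 3 of 10 (Kdr and Esam higher, Flt1 lower; 19.9% of all genes). For the departure of the double effect from the sum of the single effects, 0 of 10 markers were called by limma, edgeR and DESeq2 and 1 had an unadjusted p under 0.05 by limma. Since 1.03% of all genes were called by limma, a count of 0 among 10 is near the background, and the intervals for Kdr and Tek given above leave room for a departure. All comparisons with negative siRNA use the same 3 control libraries.

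The replicates came from separate litters, and same-numbered libraries of the negative, Yap and Wwtr1 groups deviated together, so a fit with the replicate number as a block and without the double libraries was added after the data were seen. In it Flt1 was lower with Yap siRNA (-0.60, adjusted p = 0.000484 by limma) and higher with Wwtr1 siRNA (0.33, adjusted p = 0.0108). Tek and Esam were higher with Yap siRNA (0.58 and 0.54, adjusted p = 0.0119 and 0.0499), and Tie1 was higher with Yap siRNA than with Wwtr1 siRNA (0.91, adjusted p = 0.0142). In all, 3 of 10 markers were called with Yap siRNA, 2 with Wwtr1 siRNA (Flt1 and Tek) and 2 between them (Flt1 and Tie1). The same fit called 16%, 21.3% and 22.6% of all genes in these comparisons.

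**Figure D3:**
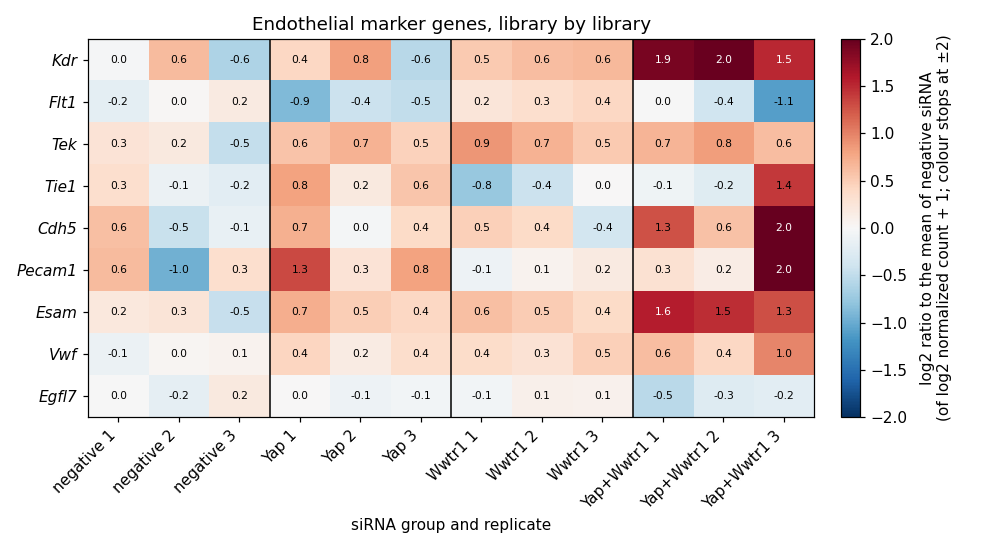
Log2 ratio of each library (columns, by siRNA group and replicate) to the mean of negative siRNA for 9 endothelial marker genes (rows), red for higher and blue for lower. The Kdr and Esam rows are red in all 3 Yap+Wwtr1 libraries, while the red of Tie1 and Pecam1 in that group is mostly in replicate 3, where Flt1 is blue.

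Within the double group the markers split by library. In replicate 3, Pecam1 was 3.45 times, Tie1 2.99 times, Cdh5 2.09 times and Vwf 1.37 times the mean of replicates 1 and 2. Flt1 was at 0.535, Kdr at 0.743, Esam at 0.852, Tek at 0.903 and Egfl7 at 1.14 of that mean. Markers of other cell types differed in the same library: the summed level of 11 macrophage and leukocyte markers was 4635 and 8759 in double replicates 1 and 2 and 30090 in replicate 3, against 13470 to 19409 in the negative libraries, 11538 to 17635 in the Yap libraries and 7967 to 11983 in the Wwtr1 libraries. Of those 11 genes, 9 were highest of all libraries in double replicate 3, as were 11 of 21 further endothelial markers and 5 of 10 fibroblast markers. Replicate 3 also held the lowest value of all libraries for 2 of 10 fibroblast and 2 of 8 mural cell markers, while 4 mural and 1 of 10 cardiomyocyte markers were highest there. Among all genes tested, 12.5% were lowest and 14.8% highest in this library, so in lists this small the counts of 2 are not far from the background. The summed mural markers were at 116668, 106057 and 93689 in double replicates 1 to 3, lowest in replicate 3 of that group. The summed cardiomyocyte markers were at 73390, 79465 and 61368, also lowest in replicate 3. That was not particular to the double group. Replicate 3 had the lowest cardiomyocyte sum with negative (35715), Yap (44044) and Wwtr1 siRNA (38814) too. The summed fibroblast markers were at 2583690, 2726190 and 3782240 in double replicates 1 to 3, the last being the highest of all libraries. The platelet and megakaryocyte markers measured, Pf4 and Gp1ba, summed to 111 and 181 in double replicates 1 and 2, to 634 in replicate 3, and to 227 to 378 with negative siRNA. The part of these cells in the marker values was not tested.

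Of 21 tested endothelial markers outside the 10 genes, 6 were called higher and 1 lower with the double knockdown, a share close to the 32.8% of all genes called in this comparison. Their median log2 fold change was 0.55, where that over all genes tested was 0.00. Cd34, a sialomucin of endothelium and of some fibroblasts, ranged over 1111 to 2142 in the negative libraries and 2617 to 3754 in the double libraries, a rise of 1.05 on the log2 scale (SE 0.23, adjusted p = 0.00420 by limma). Plvap, the diaphragm protein of fenestrated capillaries, rose by 1.03 (SE 0.32, adjusted p = 0.0279), a call kept in 7 of 12 fits with one library left out and lost without double replicate 3 (0.68, adjusted p = 0.0879). Ramp2, the adrenomedullin receptor subunit, and the genes Eng, S1pr1 and Mmrn2 were the others called higher, the last with a call kept in 7 of 12 fits with one library left out and lost without double replicate 3 (1.39, adjusted p = 0.0914 by limma). With the 2 compared groups fitted alone, Plvap, S1pr1 and Mmrn2 were not called (adjusted p = 0.0794, 0.0601 and 0.0530 by limma).

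Myct1 was the one further endothelial marker that fell. It went from 854, 625 and 1014 with negative siRNA to 204, 140 and 126 with both siRNAs, a change of -2.40 (SE 0.26, adjusted p = 6.4e-05 by limma), kept with each library left out. In the single knockdowns 1 of 21 was called with Yap siRNA (Cd34, 0.89 higher) and 2 with Wwtr1 siRNA (Ramp2, 0.86 higher, and Clec14a, 0.47 higher), shares close to the 4.8% and 8.96% of all genes called in these comparisons. The calls of Cd34 with Yap siRNA and of Clec14a with Wwtr1 siRNA were near the threshold, with adjusted p = 0.0466 and 0.0416, and were lost in most fits with one library left out and without the trend (adjusted p = 0.0916 and 0.0642 by limma); that of Cd34 was also lost with the compared groups alone (adjusted p = 0.0656) and by edgeR (adjusted p = 0.0570).

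Of 17 transcription factors of the endothelial programme, 5 were called higher and 1 lower with Yap+Wwtr1 siRNA, again close to the 32.8% of all genes. Gata2, which drives several endothelial genes, was at 62.6, 87.0 and 53.7 with negative siRNA and 128, 199 and 227 with both siRNAs (1.42, SE 0.27, adjusted p = 0.00206 by limma). Ets2 rose by 1.17 (SE 0.12, adjusted p = 3.7e-05), as did Erg by 1.23 (SE 0.36, adjusted p = 0.0211), Elk3 by 0.35 and Nr2f2 by 0.35, of which Erg kept the call in 10 and Nr2f2 in 7 of 12 fits with one library left out. Nr2f2 was not called without double replicate 3 (0.27, adjusted p = 0.0976 by limma) or without the trend (adjusted p = 0.0516), nor was Erg with the 2 compared groups fitted alone (adjusted p = 0.0545). Ets1, another ETS factor, fell from 7387, 7881 and 9498 to 3406, 2931 and 2819 (-1.43, SE 0.14, adjusted p = 3.2e-05), and was also lower with Yap siRNA (-0.59, adjusted p = 0.0364, kept in 6 of 12 such fits and lost without the trend, adjusted p = 0.0760, or with the compared groups alone, adjusted p = 0.0605) and with Wwtr1 siRNA (-0.79, adjusted p = 0.00492). Fli1 gave -0.10 and was not called.

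Among 9 ligands and co-receptors of the marker receptors, Vegfc alone was called with Yap+Wwtr1 siRNA, where 32.8% of all genes were. This ligand of lymphatic growth was at 2196, 2288 and 2651 in the negative libraries, 1745, 1585 and 1962 in the Yap libraries, 2360, 2153 and 2410 in the Wwtr1 libraries and 1077, 1071 and 1092 in the double libraries. It fell by 1.13 with both siRNAs (SE 0.09, adjusted p = 1.26e-05 by limma) and by 0.43 with Yap siRNA (adjusted p = 0.0272, kept in 8 of 12 fits with one library left out, and lost without the trend or with the compared groups alone, adjusted p = 0.0532 and 0.0647), while Wwtr1 siRNA gave -0.04 (95% interval -0.25 to 0.16). The departure from the sum of the single effects was -0.66 (SE 0.13, adjusted p = 0.0432), a call kept in 3 of 12 fits with one library left out and lost without the trend (adjusted p = 0.0809). Vegfa, the main ligand of Kdr and Flt1, gave -0.07 and the Tie2 ligand Angpt1 gave -0.71 (adjusted p = 0.0558), neither called. Of 4 lymphatic markers, none was called with both siRNAs by limma.

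**Figure D4:**
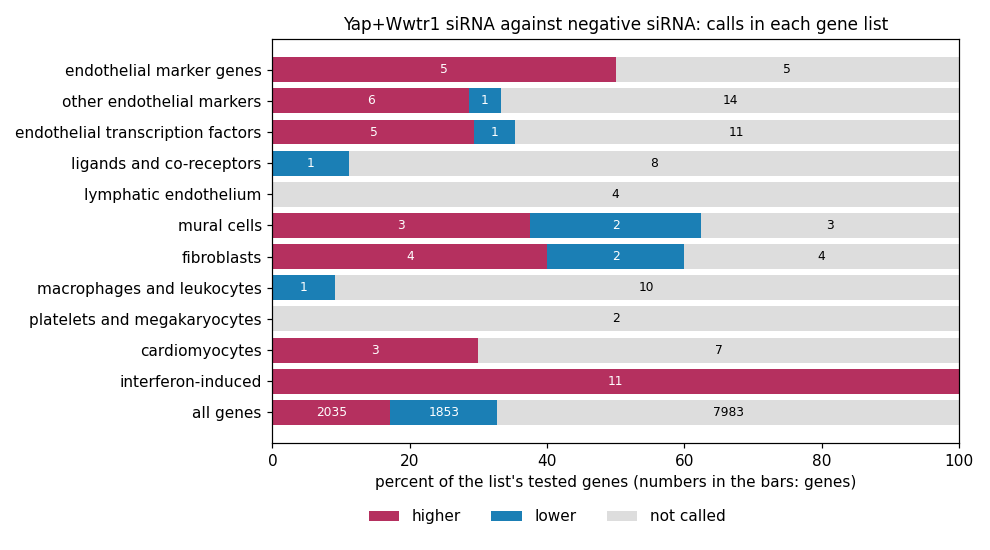
Share of each gene list (y axis) that was called higher (red), called lower (blue) or not called (grey) with Yap+Wwtr1 siRNA against negative siRNA by limma, in percent of the list's tested genes (x axis), with gene counts in the bars. The 10 endothelial marker genes are split into 5 higher and 5 not called, and the bottom bar shows all 11871 genes tested.

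Markers of other cells that the cultures could hold were read in the same comparison, in which 32.8% of all genes were called. Of 8 mural cell markers, 3 were higher (Abcc9, Kcnj8 and Rgs5) and 2 lower (Mcam and Notch3); of 10 fibroblast markers, 4 were higher (Dcn, Pdgfra, Lum and Postn) and 2 lower (Col1a2 and Tcf21). Of 11 macrophage and leukocyte markers 1 was lower (Cx3cr1), and of 10 cardiomyocyte markers 3 were higher (Myh6, Tnni3 and Myl2). Among these genes, Lum, Mcam, Tnni3, Tcf21, Col1a2 and Myl2 kept the call in 6 to 11 of 12 fits with one library left out. Without double replicate 3, Tnni3 (1.06, adjusted p = 0.0551 by limma) and Myl2 (1.07, adjusted p = 0.0728) lost it. With the 2 compared groups fitted alone, Lum and Col1a2 were not called (adjusted p = 0.0676 and 0.111 by limma), nor was Myl2 without the trend (adjusted p = 0.0730) or Col1a2 with a pseudocount of 10 (adjusted p = 0.0503). Of 11 interferon-induced genes, 11 were higher in the double knockdown, 11 in the Yap group and 10 in the Wwtr1 group. In the Yap and Wwtr1 comparisons 4.8% and 8.96% of all genes were called. The summed level of the 11 genes was 5614 to 9807 in the negative libraries and 97953 to 128131 in the double libraries. The part of these genes and cells in the marker changes was not tested.

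The genes whose pattern over the 12 libraries was most like the mean of the 10 markers were A3galt2, Plscr4, Olfml2a, Add3, Bnip3, Zfp503, Arhgef7, Nudt4, Dcn and Myorg, with Pearson r of 0.897 to 0.930 among 10095 candidates of mean at least 100. None of them is on the lists of endothelial genes used here, and 1 of them, Dcn (r = 0.897), is on the fibroblast list. Emcn, with its many zeros, weighed heavily in that mean: without it the nearest gene was Ednrb (r = 0.969), and 2 of the 10 names (Add3 and Zfp503) were shared. Among 22 further endothelial genes, Cd34 came nearest to the mean of all 10 at r = 0.750 (rank 330), while without Emcn Ets2 came nearest at r = 0.852 (rank 259); Ets1 was farthest in both, at r = -0.720 and -0.903. These correlations are over the same 12 libraries and their groups, and describe likeness only.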

How the data were processed

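Strand use in counting is not given in the sources used here. Per the labels and the study's methods, reads were trimmed with Trim Galore (0.6.5), aligned to rat genome build rn6 with HISAT2 and quantified with StringTie, and the authors deposited a signal of normalized counts per gene, each library's counts divided by its own factor. Whole reads were recovered from these steps: 100% of 147252 values lay within 0.1 of a whole read. Tables of the authors' own fold changes and p-values were not used, and no value column lacked a sample.

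Genes with a mean normalized count of at least 10 (11871 of 12271) were tested with limma (3.58.1) in R (4.3.3) on log2(value + 1), with a mean-variance trend, all 12 libraries in one fit, and Benjamini-Hochberg adjustment over all genes tested in each comparison. A count model was used only as an alternative, on the recovered reads (edgeR 4.0.16; DESeq2 1.42.0), together with other pseudocounts, filters, scaling, samples and a replicate block. The script was tested on simulated data. The members and gene lists were chosen with earlier results of these data known. Named genes were all 10 markers, both siRNA targets, the 3 called genes of each list with the largest change and a mean of at least 100, list genes behind counts of 5 or fewer, and the 10 most like the mean marker pattern. Erg, Eng, Fli1, Vegfa and Angpt1 were named after their values were seen, as were the other members listed beside counts above 5. Replicates were from separate litters per the study's methods; deviations from group means of same-numbered libraries correlated at 0.104 to 0.276 in 9 pairs among the negative, Yap and Wwtr1 groups, and at -0.127 to 0.180 in 9 pairs with a double library, so the numbers were taken to pair the first 3 groups only. The summed cardiomyocyte markers went with the replicate number in the double group as well, being lowest in replicate 3 of every group. No 2 replicates agreed within sampling noise by a chi-square test of their reads over genes.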

Additional observations from a re-analysis of the deposited data

Results flagged for a closer look

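Flt1 differed between the single knockdowns by a direct test of Yap siRNA against Wwtr1 siRNA. The difference was -0.93 on the log2 scale (SE 0.22, adjusted p = 0.0236 by limma), with 3 of 3 Yap libraries below and 3 of 3 Wwtr1 libraries above the range of negative siRNA. Over the alternatives that used all libraries of these groups its adjusted p ran from 4.8e-05 to 0.0501, the highest without a mean-variance trend.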

How the results depend on the processing

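With 3 libraries a group, single libraries decided many calls: of 56 called single-gene results, 26 lost the call in at least 1 of 12 fits with one library left out. For the double knockdown against negative siRNA, 5 markers called became 3 when the compared groups were fitted alone (Cdh5 and Vwf lost) and 3 to 5 with one library left out (all genes 2745 to 4054). With Yap siRNA, 0 markers became 1 by DESeq2, 1 with the replicate block over all 12 libraries (Tek, adjusted p = 0.0306 by limma), 3 with the block and the double libraries left out, and 0 to 1 with one library left out; calls over all genes went from 570 to 1013, 874 and 1904 in those 3 fits, to 294 without the trend and to 111 to 764 with one library left out. With Wwtr1 siRNA, 1 marker became 0 without the trend, 0 with the compared groups alone, 2 with the block and no double libraries, and 0 to 1 with one library left out; all genes went from 1064 to 2527 under that block and to 548 to 1419. Double against Yap siRNA, 2 markers became 1 at a minimum mean of 100, where 7 markers were tested, and 1 to 2 with one library left out; all genes went from 1637 to 774 with the compared groups alone and to 758 to 1873. Double against Wwtr1 siRNA, 3 markers became 2 to 4 and 2359 genes became 1661 to 2887 under the other alternatives, and 1 to 3 markers and 1288 to 2340 genes with one library left out. Yap against Wwtr1 siRNA, 1 marker became 0 without the trend, 2 with the compared groups alone, 2 with the block and no double libraries, and 0 to 2 with one library left out; all genes went from 1044 to 2680 under that block and to 434 to 1409. The departure from additive effects stayed at 0 markers in each alternative, while all genes went from 122 to 503 by DESeq2, 231 with the block, 60 without the trend and 31 to 160 with one library left out. The sign of Pecam1 with Wwtr1 siRNA turned by edgeR (-0.099) and DESeq2 (-0.098). With one library left out, the sign turned for Kdr (-0.077 to 0.62), Egfl7 (-0.14 to 0.050) and Wwtr1 (-0.0925 to 0.0215) with Yap siRNA, for Pecam1 (-0.44 to 0.36), Cdh5 (-0.0637 to 0.46), Egfl7 (-0.0451 to 0.14) and Yap1 (-0.10 to 0.0725) with Wwtr1 siRNA, for Tie1 with both (-0.16 to 0.67) and for Tek between double and Wwtr1 siRNA (-0.0904 to 0.0909); none of these was called. Over the alternatives that left out no single library, calls over all genes ran from 3031 to 4205 for the double knockdown against negative siRNA. They ran from 832 to 2527 for Wwtr1 siRNA against negative siRNA and from 816 to 2680 for Yap against Wwtr1 siRNA. The cause of each change was not tested.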
